A study of Mus musculus with 10 samples.

Results

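The transcripts of the mitochondrial genome were examined in macrophages of the small intestinal lamina propria, 24 h after sham surgery or after pMCAO, the permanent occlusion of the middle cerebral artery that models ischaemic stroke. Members were all rows of the deposited gene table whose gene name begins with mt-, which gave 26 of 17279 rows. These were both ribosomal RNAs (rRNAs), all 13 messenger RNAs (mRNAs) and 11 of the 22 transfer RNAs (tRNAs) that the GENCODE M21 annotation places on the mitochondrial chromosome. Each group held 5 libraries, all from mice labelled C57BL6/J, and the cells of both groups were sorted as CX3CR1-GFP+ from the peeled mucosa. The age and sex of the mice are not in the labels, and the reporter allele is named only through the sorted signal, which dendritic cells of the gut can also carry. The names of the replicate 1 libraries of both groups contain the word pool. Nothing states that the other replicates came from 1 animal each, so p-values measure the spread between these libraries.

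Mitochondrial DNA is a small circle that is read from both strands by a dedicated RNA polymerase, Polrmt. Each strand gives a long precursor, and tRNAs lying between the other genes mark where it is cut into rRNAs, mRNAs and tRNAs. The rRNAs mt-Rnr1 (12S) and mt-Rnr2 (16S) build the mitochondrial ribosome, and the mRNAs encode core subunits of respiratory complexes I, III and IV and of the ATP synthase, complex V. All other subunits of these complexes are encoded in the nucleus. Pieces of mitochondrial DNA have also been copied into nuclear chromosomes during evolution, where they lie as pseudogenes.

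Sequences are shown first for some of these genes. Whether such copies affect their counts was not tested. The GRCm38 build of the mouse genome holds, on the minus strand of chromosome 1 between 24611535 and 24616197, 7 annotated pseudogenes in the same order as mt-Co1 (its last part), mt-Co2, mt-Atp6, mt-Co3, mt-Nd3, mt-Nd4l and mt-Nd4 (its first part). Other copies lie on chromosomes 2 and 13. For mt-Co2, which encodes a catalytic core subunit of complex IV and lies at chrM:7013-7696, the chromosome 1 copy Gm28661 at chr1:24614885-24615565 had 0 mismatches over 681 aligned bases, and the chromosome 2 copy Gm13341 at chr2:22587291-22587962 had 16 mismatches over 684. Capitals below mark the positions at which Gm13341 differs from mt-Co2 among the first 60 coding bases (C25T and G57A, counted from the first base of the mt-Co2 gene, with the mitochondrial base first).
mt-Co2: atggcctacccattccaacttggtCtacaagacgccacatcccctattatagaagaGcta
Gm28661: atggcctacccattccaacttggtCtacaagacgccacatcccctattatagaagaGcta
Gm13341: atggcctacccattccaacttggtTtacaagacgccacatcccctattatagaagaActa

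The copy of mt-Nd3, a complex I subunit gene at chrM:9459-9806, is Gm28438 at chr1:24612775-24613119. It differed from mt-Nd3 at 1 of 345 aligned bases, T3C, which is in capitals below.
mt-Nd3: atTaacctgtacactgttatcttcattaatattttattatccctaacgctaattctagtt
Gm28438: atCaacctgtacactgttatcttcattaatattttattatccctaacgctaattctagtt

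The genes of the ATP synthase subunits mt-Atp8 (chrM:7766-7969) and mt-Atp6 (chrM:7927-8607) share 43 bases, in capitals below at the end of mt-Atp8, so a read that spans them lies in both genes.
mt-Atp8: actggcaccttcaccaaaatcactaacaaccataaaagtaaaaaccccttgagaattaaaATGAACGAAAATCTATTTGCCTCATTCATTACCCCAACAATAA

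The tRNAs with the most counts were those for proline (mt-Tp, chrM:15356-15422, minus strand) and leucine (mt-Tl1, chrM:2676-2750, plus strand). Both are shorter than the 100-base reads, and mt-Tl1 lies directly between mt-Rnr2 and mt-Nd1.
mt-Tp: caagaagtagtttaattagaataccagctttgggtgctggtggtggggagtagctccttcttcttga
mt-Tl1: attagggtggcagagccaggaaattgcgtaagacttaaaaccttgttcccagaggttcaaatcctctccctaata

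The libraries were made from total RNA after ribosomal RNA had been removed by a cleavage method, and total counts ran from 18894151 to 60665972 in the sham group and from 6430643 to 28672285 in the pMCAO group. Sham replicate 5 and pMCAO replicate 4 stood apart by Xist, the RNA of the inactive X chromosome, at 2237 and 4686 CPM (counts scaled to the library total) against 1.27 to 4.88 CPM in the other 8 libraries. Levels below are CPM of all counts listed, and fold changes are those of edgeR's quasi-likelihood test on counts scaled by TMM. In bulk samples such as these, fewer cells of a type and less RNA per cell cannot be told apart.

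All 26 mitochondrial rows together took from 5.36% of counts (sham replicate 5) to 25.3% (sham replicate 4). In the order of replicates 1 to 5, the share was 16.4, 10.2, 10.95, 25.3 and 5.36% in the sham libraries and 12.5, 7.23, 24.9, 13.8 and 9.78% after pMCAO. The group means were 13.7 ± 7.61% and 13.6 ± 6.80% (SD, n = 5 each), so the libraries of each group spread over nearly the same range. Most of these counts were rRNA.

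**Figure D1:**
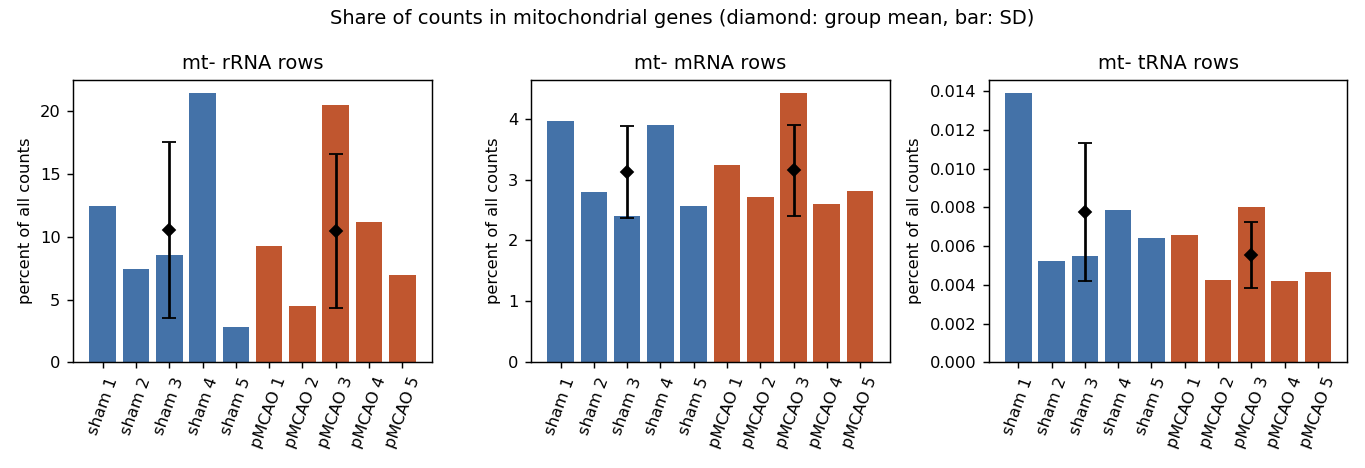
Percent of all counts (y axis) in mitochondrial rRNA, mRNA and tRNA rows for each library (bars, sham in blue and pMCAO in red), with the group mean and SD over 5 libraries as diamonds with error bars. The rRNA share ran from 2.79% to 21.4% between libraries of the sham group, while the mRNA share stayed between 2.40% and 4.41% over all 10 libraries.

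The rRNA share was 12.4, 7.40, 8.55, 21.4 and 2.79% in sham replicates 1 to 5 and 9.26, 4.52, 20.5, 11.2 and 6.97% in pMCAO replicates 1 to 5. Sham replicate 4 and pMCAO replicate 3 were highest and sham replicate 5 was lowest, and the groups overlapped over most of their range. The cytosolic 18S rRNA row Rn18s-rs5 stood at 0.759, 0.436, 0.723, 1.02 and 0.118% of counts in the sham libraries and at 0.267, 0.267, 1.06, 0.528 and 0.475% after pMCAO. The same pair of libraries was highest and the same library lowest for it. Whether unequal removal of rRNA sets the mitochondrial rRNA level was not tested.

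mt-Rnr1 (chrM:70-1024) stood at 29045 ± 20108 CPM in the sham group and at 31153 ± 17702 CPM after pMCAO (SD, n = 5 each). Its log2 fold change was 0.02 (standard error 0.60, 95% confidence interval −1.28 to 1.32, adjusted p = 0.999 in edgeR's quasi-likelihood test with Benjamini-Hochberg adjustment over all genes). mt-Rnr2 (chrM:1094-2675) stood at 76155 ± 49935 CPM and 73722 ± 43708 CPM. Its log2 fold change was −0.12 (standard error 0.63, interval −1.48 to 1.24, adjusted p = 0.989 in the same edgeR test). The intervals of both rRNAs reached from 0.359-fold to 2.49-fold, so changes within that range were not detectable here. A single library set the sign. Without sham replicate 4 the log2 fold changes were 0.58 and 0.39, and without pMCAO replicate 3 they were −0.47 and −0.64.

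Within a library both rRNAs kept close to each other. The count of mt-Rnr2 divided by that of mt-Rnr1 was 2.59, 2.72, 2.96, 2.52 and 2.38 in sham replicates 1 to 5 and 2.19, 2.51, 2.43, 2.43 and 2.24 in pMCAO replicates 1 to 5. The pMCAO ratios were all below the sham mean, but the groups overlapped, since the highest pMCAO ratio (2.51) exceeded the lowest sham ratio (2.38). The means were 2.64 ± 0.220 and 2.36 ± 0.138 (SD, n = 5 each), a log2 difference of −0.16 (two-sided exact permutation p = 0.0476, adjusted p = 0.0952 over the 2 ratios tested, where the smallest p possible is 0.00794). The difference therefore did not pass after adjustment. Without sham replicate 5, the library with the lowest sham ratio, it was −0.19, with an adjusted exact permutation p of 0.0317. That library was the only sham library below the highest pMCAO ratio, so leaving it out separated the groups completely. The lower p follows from that choice. Of the alternatives run, leaving out sham replicate 5 was the only 1 under which the ratio passed. Per kilobase of gene, mt-Rnr2 was above mt-Rnr1 in 10 of 10 libraries, by a factor of 1.32 to 1.79.

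**Figure D2:**
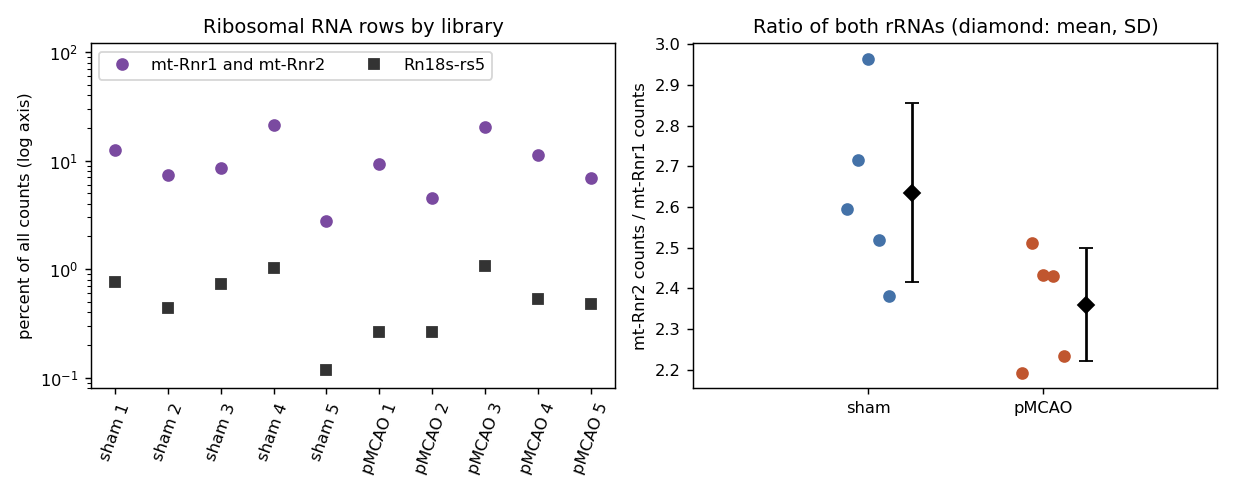
Left, percent of all counts (log axis) in both mitochondrial rRNAs (circles) and in the cytosolic row Rn18s-rs5 (squares) for each library. Right, count of mt-Rnr2 over count of mt-Rnr1 for each library (circles) with the mean and SD of 5 libraries (diamonds), on an axis that does not start at 0. Sham replicate 4 and pMCAO replicate 3 were highest in both rRNA measures on the left, and the ratio was 2.64 ± 0.220 in sham and 2.36 ± 0.138 after pMCAO.

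The mRNAs fell into 2 sets by level. Over all libraries, 8 of them had a median between 591 and 6845 CPM per kilobase of gene, and the other 5 had a median between 2.14 and 6.84 CPM per kilobase. The first set, described first, was mt-Co1 (the catalytic core of complex IV), mt-Cytb (cytochrome b of complex III) and the complex I genes mt-Nd1, mt-Nd2, mt-Nd3, mt-Nd4, mt-Nd5 and mt-Nd6. The second set was mt-Co2 and mt-Co3 of complex IV, mt-Atp6 and mt-Atp8 of complex V and mt-Nd4l of complex I.

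In CPM per kilobase, a level that allows genes to be compared, mt-Co1 was the highest mRNA, with a median of 6845 (5239 to 12287 over the 10 libraries). It lay above the next gene, mt-Nd1 (median 3776), in 10 of 10 libraries, by a factor of 1.40 to 2.36. mt-Nd1 and mt-Cytb (median 3741) were not separated, as their ratio ran from 0.817 to 1.11. Both were above mt-Nd5 (median 2408), and mt-Cytb was so in 10 of 10 libraries. mt-Nd5, mt-Nd4 (median 2183) and mt-Nd2 (median 2171) changed places between libraries. mt-Nd6, the mRNA encoded on the other strand from all others, followed at a median of 1477 and was below mt-Nd2 in 10 of 10 libraries. mt-Nd3 was the lowest of the 8, at a median of 591, and mt-Nd6 was above it in 10 of 10 libraries.

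Within the mitochondrial mRNA counts, not corrected for gene length, mt-Co1 took from 32.4% to 43.0% over the 10 libraries, mt-Cytb from 14.05% to 16.5% and mt-Nd4 from 9.12% to 11.5%. mt-Nd1 took from 10.4% to 15.2%, mt-Nd5 from 11.2% to 16.5% and mt-Nd2 from 5.71% to 9.22%. mt-Nd6 ranged from 1.77% to 3.05% and mt-Nd3 from 0.567% to 0.767%.

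**Figure D3:**
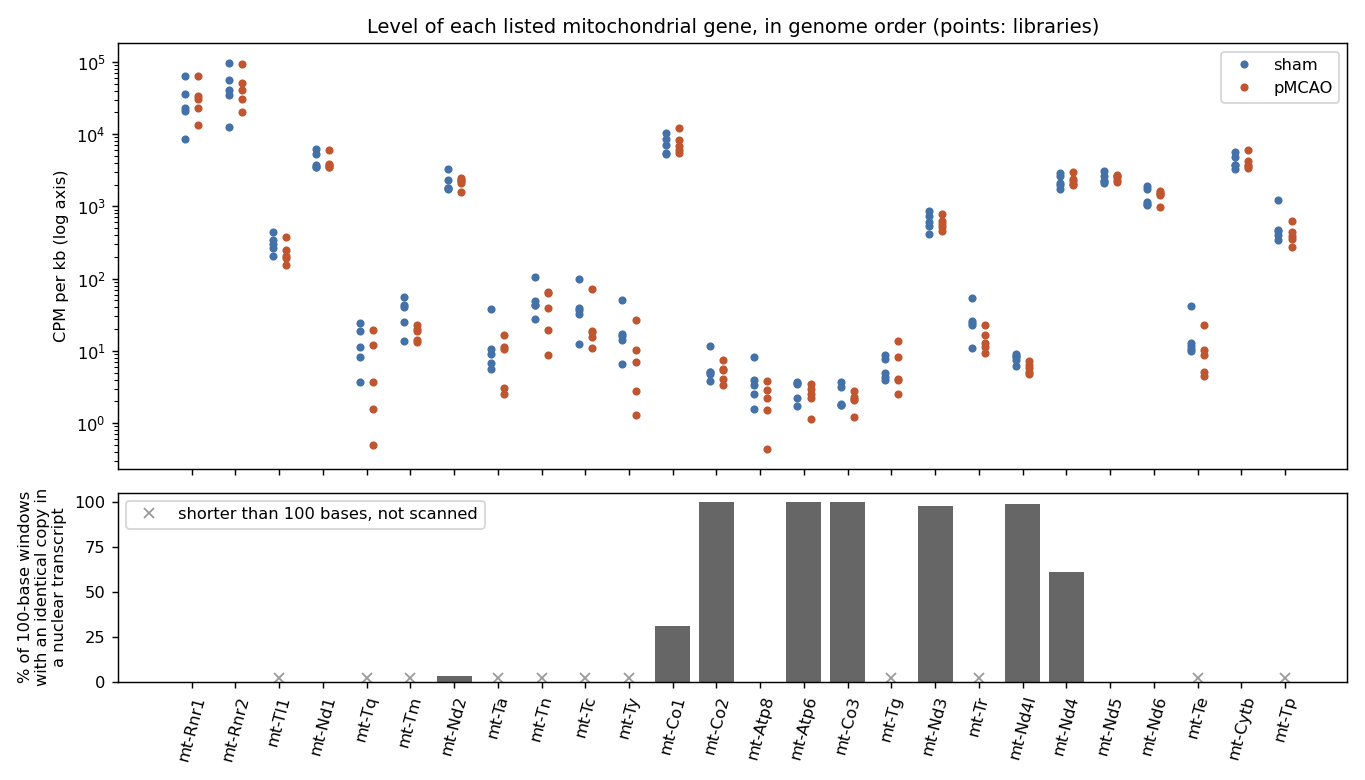
Top, level of each of the 26 listed mitochondrial genes in CPM per kilobase of gene (log axis) in genome order, with 1 point per library (sham in blue, pMCAO in red). Bottom, percent of all 100-base windows of each gene that occur without a mismatch in a nuclear transcript of GENCODE M21, with a cross for tRNAs, which are shorter than the window. The 5 lowest mRNAs had medians between 2.14 and 6.84 CPM per kilobase, and 4 of them had copies over 98.5% to 99.9% of their windows.

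The 5 mRNAs of the second set had from 1 to 214 counts in a library, where the first set had from 1387 to 511043. mt-Co2 was at 2.59, 3.45, 3.23, 7.89 and 3.53 CPM in sham replicates 1 to 5 and at 3.73, 2.79, 2.30, 3.88 and 5.07 CPM in pMCAO replicates 1 to 5. mt-Co3 ranged from 0.942 to 2.94 CPM, mt-Atp6 from 0.778 to 2.49 CPM, mt-Nd4l from 1.43 to 2.65 CPM and mt-Atp8 from 0.0885 to 1.70 CPM over all libraries. Their neighbour mt-Co1, on the same precursor and in the same complex as mt-Co2 and mt-Co3, was between 8094 and 18983 CPM in the same libraries.

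The low genes other than mt-Atp8 lay where the nuclear copy on chromosome 1 is identical. Of the 100-base windows of each gene, which is the length of a read, the share found without a mismatch in a nuclear transcript was 99.5% for mt-Co2, 99.5% for mt-Atp6, 99.9% for mt-Co3 and 98.5% for mt-Nd4l. For mt-Nd1, mt-Nd5, mt-Nd6, mt-Cytb and both rRNAs it was 0%. For mt-Nd2 it was 3.19%. mt-Co1 (30.8%) and mt-Nd4 (60.8%), which the copy covers in part, kept medians of 6845 and 2183 CPM per kilobase. mt-Atp8 had 0%, where only annotated transcripts were scanned. Its place in the copy would be chr1:24614609-24614812 by the constant offset of the genes on both sides. The genome sequence at that place was not examined. mt-Nd3 went against this order, since 97.6% of its windows had a copy and it still stood at 145 to 299 CPM. Per kilobase it was at least 50.9 times above mt-Nd4l in each library. How reads that match several places were counted is not given in the sources used here, and its part in these low values was not tested. The 5 rows are therefore given as counted, and not as the amount of these mRNAs in the cells.

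If only windows without a copy are taken as the length, a choice made after the values were seen, the median level of mt-Co1 becomes 10575 CPM per kilobase and that of mt-Nd4 5992. On that scale mt-Nd4 lies above mt-Nd1 at 4211 and mt-Cytb at 4095 (both per kilobase of windows), so its place in the order depends on how its copied part is treated.

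The nuclear copies themselves held few counts. The 9 listed of 11 annotated copies took between 0.00285% and 0.00718% of counts, and together 28.5 to 71.8 CPM. Gm28661 had a median of 6.52 CPM in the sham group and 5.55 CPM after pMCAO, beside a median of 3.45 and 3.73 CPM for mt-Co2. Gm28438, the copy of mt-Nd3, had medians of 1.96 and 2.50 CPM. Adding the counts of the listed copies to the 4 of these genes that have one did not bring any of them near mt-Co1, as the copies of mt-Co2 had a median sum of 10.2 CPM, that of mt-Atp6 7.34 CPM and that of mt-Co3 3.97 CPM. For mt-Atp6 the difference of mean log2 CPM between the groups went from −0.28 to 0.13 when its copy was added, a choice made after the values were seen. A gene and its copy share sequence, so each such count is uncertain.

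After pMCAO, 0 of the 25 mitochondrial rows that passed the filter on low counts were called at an adjusted p of 0.05 in edgeR's quasi-likelihood test with Benjamini-Hochberg adjustment, where 0% of all 16949 genes tested were. At an unadjusted p under 0.05 the count was 0 of 25 against 4.71% of all genes, and in 0 of 25 rows did the groups not overlap, against 0.985% of all genes. DESeq2 and limma-voom also called 0 of the 25, with 1 and 0 rows at an unadjusted p under 0.05. mt-Tg, a tRNA for glycine, was the row that did not pass, at 2 to 32 counts a library.

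**Figure D4:**
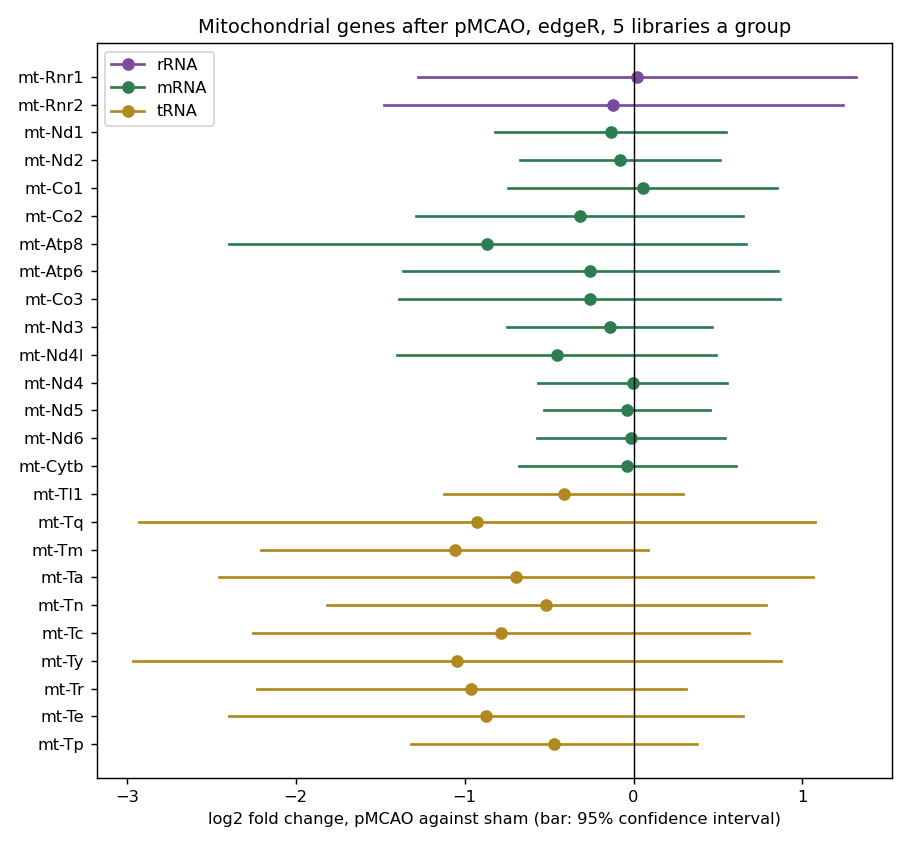
Log2 fold change of pMCAO against sham (x axis) with its 95% confidence interval for the 25 mitochondrial rows tested by edgeR, grouped as rRNA, mRNA and tRNA and in genome order within each. Every interval includes 0, the standard errors of the 8 abundant mRNAs are 0.23 to 0.37, and all 10 tRNA points lie below 0.

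All mRNA rows together took 3.97, 2.80, 2.40, 3.89 and 2.56% of counts in sham replicates 1 to 5 and 3.24, 2.71, 4.41, 2.59 and 2.80% in pMCAO replicates 1 to 5. The means were 3.12 ± 0.750% and 3.15 ± 0.747% (SD, n = 5 each). The ratio of rRNA to mRNA counts moved more between libraries, from 1.09 in sham replicate 5 to 5.50 in sham replicate 4, with means of 3.19 ± 1.60 in sham and 3.20 ± 1.26 after pMCAO.

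The 8 abundant mRNAs had log2 fold changes between −0.14 (mt-Nd3) and 0.05 (mt-Co1), with standard errors of 0.23 to 0.37 and adjusted p-values of 0.964 to 0.999 in edgeR's test. Their 95% intervals together ran from 0.567-fold to 1.80-fold. mt-Nd5, a proton-pumping subunit of complex I, was the most precise, at 5607, 4057, 3889, 4820 and 4117 CPM in sham replicates 1 to 5 and at 4750, 3929, 4940, 4162 and 4623 CPM in pMCAO replicates 1 to 5. The groups overlapped throughout, and its log2 fold change was −0.04 (standard error 0.23), a fold of 0.975 with a 95% interval of 0.693 to 1.37.

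mt-Co1 was at 16191, 10750, 8094, 13364 and 8424 CPM in sham replicates 1 to 5 and at 12799, 10399, 18983, 8405 and 9178 CPM in pMCAO replicates 1 to 5. The highest value was that of pMCAO replicate 3 and the lowest that of sham replicate 3, and the groups overlapped. Its log2 fold change was 0.05 (standard error 0.37). mt-Cytb was at 5574, 4284, 3701, 6372 and 4227 CPM in the sham libraries and at 4919, 4106, 6772, 3912 and 4275 CPM after pMCAO, and its log2 fold change was −0.04 (standard error 0.30). For both genes pMCAO replicate 3 was the highest library of its group.

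Among the other complex I genes, the log2 fold change was −0.14 for mt-Nd1, −0.08 for mt-Nd2 and −0.0055 for mt-Nd4. mt-Nd6 was at 989, 541, 551, 909 and 589 CPM in the sham libraries and at 844, 512, 780, 790 and 754 CPM after pMCAO. In the sham group it was high in replicates 1 and 4 and low in the other 3 libraries, and after pMCAO only replicate 2 was low. Its log2 fold change was −0.01 (standard error 0.26). The ratio of mt-Nd6 to mt-Cytb counts, which sets a minus-strand mRNA against its plus-strand neighbour inside each library, was 0.147 ± 0.0190 in sham and 0.158 ± 0.0368 after pMCAO (SD, n = 5 each). The log2 difference was 0.08 (two-sided exact permutation p = 0.667, adjusted p = 0.667 over the 2 ratios). Per kilobase, mt-Nd6 stood at 0.254 to 0.445 of mt-Cytb.

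The 5 low mRNAs had log2 fold changes between −0.86 (mt-Atp8) and −0.26, with standard errors of 0.43 to 0.70 and adjusted p-values of 0.922 to 0.967 in edgeR's test. mt-Nd4l was at 2.49, 1.86, 2.20, 2.65 and 2.44 CPM in the sham libraries and at 2.18, 1.43, 1.50, 1.72 and 1.89 CPM after pMCAO. The pMCAO values were all below the sham mean but overlapped the lowest sham value, and the log2 fold change was −0.45 (standard error 0.43). mt-Atp8 was fitted from 1 to 58 counts a library. Over all 13 mRNA rows the median log2 fold change was −0.14, beside −0.0059 over all genes tested. Of the 13, 12 were fitted below 0, as were 50.6% of all genes. Over the 8 abundant rows alone the median was −0.037, and 7 were fitted below 0. Without sham replicate 4 the count over the 13 fell to 5.

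The tRNA rows together took 0.0139, 0.00524, 0.00550, 0.00786 and 0.00639% of counts in sham replicates 1 to 5 and 0.00656, 0.00425, 0.00803, 0.00420 and 0.00465% in pMCAO replicates 1 to 5. Sham replicate 1, the sham library whose name holds the word pool, was the highest sham library in 9 of the 11 rows, and pMCAO replicate 1, the other such library, was the highest pMCAO library in 7 of the 11. Mature tRNAs are short and folded, and library construction recovers them poorly, so these rows are given as counted, and not as the amount of tRNA.

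mt-Tp was at 81.1, 30.2, 23.3, 31.2 and 26.8 CPM in the sham libraries and at 29.5, 26.3, 42.2, 18.1 and 23.7 CPM after pMCAO. Sham replicate 1 stood far above the rest, and the other 9 libraries overlapped. Its log2 fold change was −0.47 (standard error 0.39), and without sham replicate 1 it was −0.0011. mt-Tl1 was at 25.3, 15.3, 20.0, 33.2 and 22.6 CPM in the sham libraries and at 18.5, 11.7, 28.4, 14.3 and 15.6 CPM after pMCAO. Its highest libraries were sham replicate 4 and pMCAO replicate 3, which were also highest for both rRNAs and for mt-Nd1, mt-Nd2, mt-Nd4 and mt-Cytb. The log2 fold change was −0.41 (standard error 0.32), and −0.38 without sham replicate 1.

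The tRNA rows next in level were mt-Tn (asparagine), from 0.628 to 7.49 CPM, and mt-Tc (cysteine), from 0.732 to 6.44 CPM. mt-Tm (methionine), named here after its values were seen because it had the smallest unadjusted p of the 25 rows, was at 3.88, 0.944, 1.73, 3.02 and 2.82 CPM in the sham libraries. After pMCAO it was at 1.56, 0.907, 0.973, 1.38 and 1.30 CPM. The pMCAO libraries were all low, and so was sham replicate 2. The log2 fold change was −1.06 (standard error 0.53, unadjusted p = 0.0671, adjusted p = 0.922 in edgeR's test). All 10 tRNA rows tested were fitted below 0, against 50.6% of all genes, with a median log2 fold change of −0.83. Without sham replicate 1 the median was −0.23 and 9 of 11 rows were below 0, and without both pooled libraries it was −0.53 and 8 of 10 were. As the rows share libraries, and are cut from shared precursors, they are not independent of each other.

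Of the tRNAs encoded on the minus strand 7 of 8 were listed, and of those on the plus strand 4 of 14. The strand setting of the counting is not given, so reads of a tRNA and of a precursor on the other strand cannot be told apart here. mt-Tp lies 1216 bases from the nearest gene on its own strand, while mt-Tl1 directly adjoins an rRNA gene.

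The nuclear genes that act on the mitochondrial genome were described by lists, with counts and medians. Of 9 transcription genes, 0 had an unadjusted p under 0.05 (4 fitted higher, 5 lower, median log2 fold change −0.27). The 4 of smallest p were Mrpl12 at −0.65, the terminator gene Mterf1a at −0.85, the polymerase gene Polrmt at −0.41 and Mterf3 at −0.27, with unadjusted p from 0.0546 to 0.305. Of 12 genes of mitochondrial DNA upkeep and nucleotide supply, 0 had an unadjusted p under 0.05 (median 0.0063), and the 4 of smallest p were the polymerase subunit gene Polg2 (0.63), the pyrimidine carrier genes Slc25a36 (0.47) and Slc25a33 (−1.11) and the topoisomerase gene Top1mt (−1.03). Of 28 tested genes of mitochondrial RNA processing and stability, 2 were higher and 1 lower at an unadjusted p under 0.05, where 2.26% of all genes were higher and 2.45% lower. Those were Trnt1, which adds the CCA end to tRNAs (0.42, unadjusted p = 0.0268), Fastkd5, which acts where no tRNA marks the cut (0.87, unadjusted p = 0.0461), and Hsd17b10, a subunit of the RNase P that frees the 5′ ends of tRNAs (−0.75, unadjusted p = 0.0307), all with an adjusted p of 0.922 in edgeR's test. Slirp, a partner of the mRNA-stabilising protein Lrpprc, was the fourth (−0.44, unadjusted p = 0.0576). Of 16 regulators of mitochondrial biogenesis 0 had an unadjusted p under 0.05 (median −0.031), with Hspe1 at −0.42, Sirt3 at −0.44, Gabpa at 0.27 and Ppargc1a at −1.04 as the 4 of smallest p.

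Nuclear genes that encode the other subunits of the same complexes were mostly fitted below 0. For complex I, 35 of 36 nuclear genes were fitted below 0 with a median log2 fold change of −0.41, and 8 were lower at an unadjusted p under 0.05, where 50.6% of all genes were below 0 and 2.45% lower at that p, with Ndufb10 (−0.73), Ndufs4 (−0.71), Ndufs8 (−0.74) and Ndufv3 (−0.50) first by p. The mitochondrial complex I mRNAs beside them were between −0.14 and −0.0055, and mt-Nd4l was at −0.45. For complex III 8 of 9 nuclear genes were below 0 (median −0.33, 0 at an unadjusted p under 0.05), led by Uqcrb (−0.43), Uqcr10 (−0.49), Uqcrh (−0.40) and Uqcrc1 (0.88), beside mt-Cytb at −0.04. Uqcrc1 ran from 31.4 to 352 CPM after pMCAO, against 37.6 to 98.3 CPM in sham. For complex IV 10 of 11 were below 0 (median −0.28, 3 lower), led by Cox6c (−0.58), Cox7a2 (−0.59), Cox6a1 (−0.45) and Ndufa4 (−0.59), beside mt-Co1 at 0.05, mt-Co2 at −0.32 and mt-Co3 at −0.26. For complex V 17 of 18 were below 0 (median −0.35, 6 lower), led by Atp5j2 (−0.71), Atp5h (−0.61), Atp5k (−0.95) and Usmg5 (−0.78), beside mt-Atp6 at −0.26 and mt-Atp8 at −0.86. Complex II, which has no mitochondrially encoded subunit, had 4 of 4 below 0 with a median of −0.085 (Sdha −0.11, Sdhd −0.11, Sdhc −0.064, Sdhb −0.052). None of these genes passed the adjusted threshold, and the difference between nuclear and mitochondrial subunits was not tested. The values of mt-Nd4l, mt-Co2, mt-Co3, mt-Atp6 and mt-Atp8 come from the rows with few counts. Those rows are not taken as the amount of these mRNAs. For mt-Atp6 the difference of mean log2 CPM was 0.13 once its nuclear copy was added.

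The labelled cell type was checked against its markers. All 15 macrophage markers were listed, and their sum ran from 12306 to 21494 CPM in the sham group and from 12323 to 22175 CPM after pMCAO, with Csf1r, the receptor that macrophages need to survive, between 690 and 1752 CPM in every library. For these 15 the median log2 fold change was 0.15, 0 had an unadjusted p under 0.05, and those of smallest p were Cd163 (1.01), Mertk (0.54), Lyz2 (−0.32) and Csf1r (0.32). Markers of other cells were present too. Over all genes tested, 50.6% were fitted below 0 and 2.45% were lower at an unadjusted p under 0.05 in edgeR's test. The sum of 20 epithelial markers was 857 to 3495 CPM in sham and 387 to 2394 CPM after pMCAO. Of these markers 13 were fitted below 0 and 7 above, the highest at 1.17. Only Olfm4 (−1.78) was lower at an unadjusted p under 0.05 in edgeR's test. Next by p were Krt18 (−0.78), Epcam (−0.71) and Reg3b (−1.64). Reg3b ran from 35.6 to 1720 CPM in sham and from 15.6 to 383 CPM after pMCAO, and its group medians were close. The sum of 10 B and plasma cell markers was 865 to 23384 and 1159 to 26375 CPM (5 below 0, with Cd79b at −0.44, Ms4a1 at −0.63 and Derl3 at 0.40 among those of smallest p). That of 11 T cell markers was 214 to 1506 and 205 to 656 CPM (11 below 0, led by Gzma, Trbc1, Cd3d and Trbc2). That of 11 stromal and endothelial markers was 67.1 to 136 and 55.7 to 126 CPM (7 fitted above 0 and 4 below). First by p among them were Pdgfra (1.59), Myh11 (1.40), Col1a1 (−0.63) and Pecam1 (−0.27). Myh11 ran from 1.40 to 24.2 CPM after pMCAO, and its medians were 2.12 CPM in sham and 2.34 CPM after pMCAO. The B and plasma cell, T cell and stromal lists each had 0 genes at an unadjusted p under 0.05 in edgeR's test. Immunoglobulin rows, apart from Jchain, were not on these lists. With Jchain they made up 181 rows, which took 0.587% to 16.3% of all counts in sham and 0.915% to 19.2% after pMCAO.

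Granulocyte and mast cell markers, of which 7 of 11 were listed, summed to 1784 to 25418 CPM in sham and 375 to 7333 CPM after pMCAO. Of the 6 tested, 2 were lower at an unadjusted p under 0.05 in edgeR's test, where 2.45% of all genes were. These were the mast cell proteases Mcpt1 (−1.86) and Mcpt2 (−1.82), followed by Cpa3 (−1.17) and Prg2 (0.42). S100a8, a defining neutrophil marker, was at 0.088 to 5.24 CPM in sham and at 0 in 4 pMCAO libraries. Retnlg, also on this list, was at 0 to 9.30 CPM in sham and 0.177 to 12.9 CPM after pMCAO. A list of cytosolic rRNA and small structural RNA rows also held the protein-coding gene Lars2. Of its 7 rows 6 were fitted below 0 (median −0.64), where 50.6% of all genes were, and Lars2 was above 0 (0.19). First by p in edgeR's test were Gm26917 (−0.99, unadjusted p = 0.0355), Rn7sk (−0.75), Rn7s2 (−0.89) and Rpph1 (−0.64). The part of these cells and RNAs in the mitochondrial levels was not tested.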

How the data were processed

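RNA was sequenced from sorted lamina propria macrophages of 5 sham and 5 pMCAO libraries, with paired reads of 100 bases. Per the submitters' processing notes, STAR, featureCounts and limma were used with GRCm38 (mm10). Versions, the strand setting and the treatment of reads matching several places are not given in the sources used here. The deposited table gives raw counts (whole numbers, not normalized) and the authors' CPM values, which equal counts over the library total to within 0.0005. The authors' own fold changes, p-values, FDRs and mean log2 levels stand in the same table and were not used. Every listed gene had at least 10 counts in at least 2 libraries.

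From the counts, filterByExpr kept 16949 of 17279 genes, which were scaled by TMM and compared with edgeR 4.0.16's quasi-likelihood test in R 4.3.3, without covariates, and adjusted by Benjamini-Hochberg over all genes tested. For ratios, exact permutation tests (two-sided) enumerated all 252 ways to split the libraries 5 against 5. Sums, shares and medians over several genes have no test. Nuclear copies were searched for in 141730 nuclear transcripts of GENCODE M21 with blastn 2.17.0 (at least 100 bases at 95% identity), and identical windows of 100 bases were counted. No genome sequence was used. Sequences are those of GENCODE M21 on GRCm38. The tests were tested on simulated data.

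Named are all mitochondrial mRNA and rRNA rows, the 4 tRNA rows of highest mean CPM, the lowest, any tRNA row at an unadjusted p under 0.05, up to 4 genes of smallest unadjusted p from each list and the nuclear copies. A gene that this rule gives is left out here. Members, lists and tests were chosen with earlier results of these data known. Alternatives were DESeq2 1.42.0, limma-voom (limma 3.58.1), upper-quartile scaling, DESeq2 size factors, scaling from nuclear rows alone, no filter on low counts, a limit of over 1 CPM in 5 or more libraries, a block for the replicate number, and leaving out both pooled libraries, the 2 libraries with Xist counts or each library in turn. For shares of counts other denominators and medians were tried. No 2 libraries were alike within sampling noise (lowest chi-square per degree of freedom 49.7, for 12089 genes and 45 pairs).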

Additional observations from a re-analysis of the deposited data

Results flagged for a closer look

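For each measure and group of 5 libraries, the distance of the outermost library to its neighbour was divided by the whole range (log2 scale), and libraries above 0.71 are given here. This held in 6 of 64 groups, where about 3.2 would be so by chance, and these measures share libraries. mt-Tp was high in sham replicate 1 (81.1 CPM, gap 0.764), and so was mt-Te, the tRNA for glutamate (2.89 CPM, gap 0.828). mt-Tc was high in pMCAO replicate 1 (4.67 CPM, gap 0.716). These are the libraries whose names contain the word pool, and whether pooling sets them apart was not tested. mt-Nd1 was high in pMCAO replicate 3 (5774 CPM, gap 0.836). mt-Co2 was high in sham replicate 4 (7.89 CPM, gap 0.722), which rests on 149 counts. mt-Nd6 was low in pMCAO replicate 2 (512 CPM, gap 0.774).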

How the results depend on the processing

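The number of mitochondrial rows at an adjusted p of 0.05 was 0 under each alternative run, and the adjusted p of the 15 mRNA and rRNA rows lay between 0.793 and 1.00 over 20 alternatives. DESeq2 called 3 of all genes where edgeR called 0, none of them mitochondrial, and the cause was not tested. With each library left out, edgeR called 0 of all genes. Of 299 alternative fold changes of the 15 rows, 49 changed sign. With DESeq2, limma-voom, upper-quartile scaling and DESeq2 size factors, mt-Nd6 was at 0.0094, 0.046, 0.011 and 0.0094 and mt-Nd4 at 0.015, 0.0050, 0.013 and 0.015 (log2). Limma-voom also gave 0.083 for mt-Co2 and 0.053 for mt-Rnr2, and the stricter filter 0.0040 for mt-Nd4. Without both pooled libraries mt-Nd1 was at 0.0010, mt-Cytb at 0.033, mt-Nd6 at 0.097, mt-Nd5 at 0.058 and mt-Nd4 at 0.068. Without the 2 libraries with Xist counts mt-Rnr1 was at −0.23 and the ratio of mt-Nd6 to mt-Cytb at −0.033.

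With each library left out in turn, the ranges of single rows and ratios that crossed 0 were −0.40 to 0.086 for mt-Nd1, −0.22 to 0.19 for mt-Nd2, −0.26 to 0.21 for mt-Co1, −0.45 to 0.16 for mt-Co2, −0.27 to 0.15 for mt-Cytb, −0.47 to 0.58 for mt-Rnr1, −0.64 to 0.39 for mt-Rnr2, −0.15 to 0.15 for mt-Nd6, −0.14 to 0.056 for mt-Nd5, −0.19 to 0.16 for mt-Nd4 and −0.016 to 0.19 for the ratio of mt-Nd6 to mt-Cytb. That of mt-Rnr2 to mt-Rnr1 ran from −0.19 to −0.11. Those of the median over the mRNA rows (−0.28 to 0.086), of the lists of mitochondrial DNA upkeep (−0.057 to 0.13), RNA processing (−0.091 to 0.020) and biogenesis (−0.077 to 0.016), and of the log2 shares of all mitochondrial rows (−0.23 to 0.33), rRNA (−0.30 to 0.43) and mRNA (−0.11 to 0.11) also crossed 0. These, the other lists, the tRNA median and the tRNA share moved by less than the spread between libraries. Leaving out a single library moves a group mean by only a part of that spread, so this does not show that they are stable. The tRNA median ran from −1.03 to −0.23.

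The replicate numbers were not taken as pairs, since same-numbered libraries correlated at −0.0055 to 0.372 and not every number was above 0.1. With the replicate block, 0 mitochondrial rows and 0 of all genes passed, 1303 genes had an unadjusted p under 0.05 against 799 without it, mt-Rnr2 was at 0.022, mt-Nd6 at 0.053 and mt-Nd4 at 0.012. Under sign flips within pairs, the smallest possible p exceeds 0.05, so the ratio tests could not pass. Of the 5 sham libraries 2 correlated best with the pMCAO library of their own number. The lower totals of the pMCAO group limit the precision of rows with few counts, such as mt-Atp8.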
